A study of Rattus norvegicus with 16 samples.

Results

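Cd36, lipoprotein lipase (Lpl) and 6 further genes through which the heart takes up, carries and stores lipid were followed across the left ventricles of 2 rat strains that breathed air or diesel exhaust (DE). The 8 genes were Cd36, Lpl, Gpihbp1, Lsr, Vldlr, Fabp3, G0s2 and Mgll, taken by symbol from the platform annotation, out of 10411 genes with a probe set of their own. They had 13 probe sets (out of 12783 that the annotation ties to 1 gene), and a further probe set was shared by Cd36 and its neighbour Cd36l1. The 16 Affymetrix rat expression arrays, 4 biological replicates per group by the series' own description, measured total RNA that had been copied into biotin-labelled cRNA. SH-DE were spontaneously hypertensive (SH) males that inhaled DE at 2.0 mg/m3 of particles, and SH-air were males of that strain kept in air. WKY-DE were Wistar Kyoto (WKY) males in the same DE atmosphere, and WKY-air were WKY males in air. The labels give all rats an age of 12 to 14 weeks. In the published study this is an age from before the exposure, not that of the hearts at collection. The labels also give sessions of 6 hours on 5 days per week for 4 weeks, whereas the published methods describe a shorter daily session. SH and WKY are whole inbred strains that differ at many loci, so the strain comparison is not one of alleles of a single gene. The values are MAS5 signals, a linear measure of probe set brightness, and the number of arrays limits their precision.

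Long-chain fatty acids reach heart muscle either bound to albumin or as triglyceride inside lipoproteins. Cardiomyocytes make lipoprotein lipase, GPIHBP1 carries the enzyme across the capillary endothelium to its working place on the vessel surface, and VLDLR and LSR bind triglyceride-rich particles. CD36 helps the released fatty acids across endothelial and muscle cell membranes, FABP3 carries them through the cytoplasm, G0S2 restrains the first lipase of stored fat, and MGLL completes the breakdown of that fat. A rearranged, defective Cd36 gene is known from many SH colonies, and colonies of the strain differ in it. No sequence of either strain was read here, and the probes were not compared with it.

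In the promoter table of RefSeq (rat build GRCr8), 6 of the 8 genes had an entry. The 250 bases before the start of Cd36 (chr4:18246332-18246581, plus strand), Lsr (chr1:95329355-95329604, minus strand) and G0s2 (chr13:107335949-107336198, minus strand) are printed because their signals were lower in SH-air hearts and they have an entry. Capitals mark the matches, on either strand, to 2 promoter motifs. The first is TATAA, the core of the TATA box. The second is GGGCGG, which is called the GC box. Overlapping matches run together in 1 stretch.
Cd36: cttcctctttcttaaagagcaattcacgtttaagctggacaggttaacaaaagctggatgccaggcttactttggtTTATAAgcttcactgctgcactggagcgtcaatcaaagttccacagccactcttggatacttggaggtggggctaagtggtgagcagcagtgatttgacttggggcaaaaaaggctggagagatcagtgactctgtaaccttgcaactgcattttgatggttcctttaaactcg
Lsr: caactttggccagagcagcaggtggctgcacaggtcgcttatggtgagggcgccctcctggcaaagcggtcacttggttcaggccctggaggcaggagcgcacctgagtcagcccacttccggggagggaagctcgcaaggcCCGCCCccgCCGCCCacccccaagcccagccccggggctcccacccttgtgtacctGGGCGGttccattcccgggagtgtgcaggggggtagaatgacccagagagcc
G0s2: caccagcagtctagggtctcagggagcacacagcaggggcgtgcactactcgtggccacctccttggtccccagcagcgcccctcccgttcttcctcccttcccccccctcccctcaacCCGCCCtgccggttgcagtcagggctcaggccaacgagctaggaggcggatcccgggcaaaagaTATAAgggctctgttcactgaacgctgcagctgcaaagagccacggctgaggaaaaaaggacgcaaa
The Cd36 window held TATAA on both strands, as 2 overlapping matches between 174 and 169 bases before the start. G0s2 held TATAA 67 bases before its start and 1 GC box, and Lsr held 3 GC boxes and no TATAA. Across 33469 rat promoters, TATAA was present in 24.0% and GGGCGG in 30.5%. Among the 6 genes, 2 windows held TATAA and 4 held GGGCGG. The hexamer AGGTCA, which PPAR receptors read as a repeat, was in 0 of the 6 windows, against 14.1% of all promoters. G and C made up 45.6% of the Cd36 window, 68.0% of the Lsr window and 62.8% of the G0s2 window. These are matches of letters in a reference genome, and neither strain's own sequence was compared.

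Before the members, 1 array has to be set apart. On 40 strain-dependent probe sets of other genes (a log2 difference over 1.5 between SH-air and WKY-air, with an adjusted p under 0.01), each array was placed on a scale on which 0 was the WKY-air mean and 1 the SH-air mean. SH-DE replicate 3 lay at a median of 0.58, while the other SH-DE arrays lay between 0.95 and 1.02 and the WKY-DE arrays between 0.12 and 0.21. Each call that involves SH-DE is therefore given with and without that array. The atrial genes Myl7, Myl4, Sln and Nppa, which a ventricular sample should hold at low levels apart from Nppa in an overloaded heart, summed to 12676 to 33226 in SH-DE, 11863 to 23519 in SH-air, 11551 to 41724 in WKY-DE and 31842 to 94242 in WKY-air. Of these 4 genes, 3 were called lower in SH-air than in WKY-air hearts and none higher, with a median log2 difference of −4.88. The ventricular markers, 7 of 8 measured, summed to 153066 to 192829 in SH-DE, 194442 to 210355 in SH-air, 160812 to 237947 in WKY-DE and 218366 to 293214 in WKY-air, so that every SH array lay below every WKY-air array. Against WKY-air, the slow myosin gene Myh7 was called lower in SH-air (log2 difference −0.93, limma adjusted p = 0.0123) and the ventricular transcription factor Irx4 lower in WKY-DE (−1.43, adjusted p = 0.0290). In SH-DE, Myh7 (−1.06, limma adjusted p = 0.00726, and −1.24, adjusted p = 0.000658, without SH-DE replicate 3) and the ventricular light chain gene Myl3 (−0.64, adjusted p = 0.0337, and −0.63, 0.0467 without that array) were called lower than in WKY-air. With quantile normalization these SH-DE calls were lost (−0.76, limma adjusted p = 0.0589 for Myh7, and −0.21, 0.303 for Myl3). These atrial and ventricular sums stand beside every comparison with WKY-air, and their part in the results on lipid genes was not tested.

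**Figure D1:**
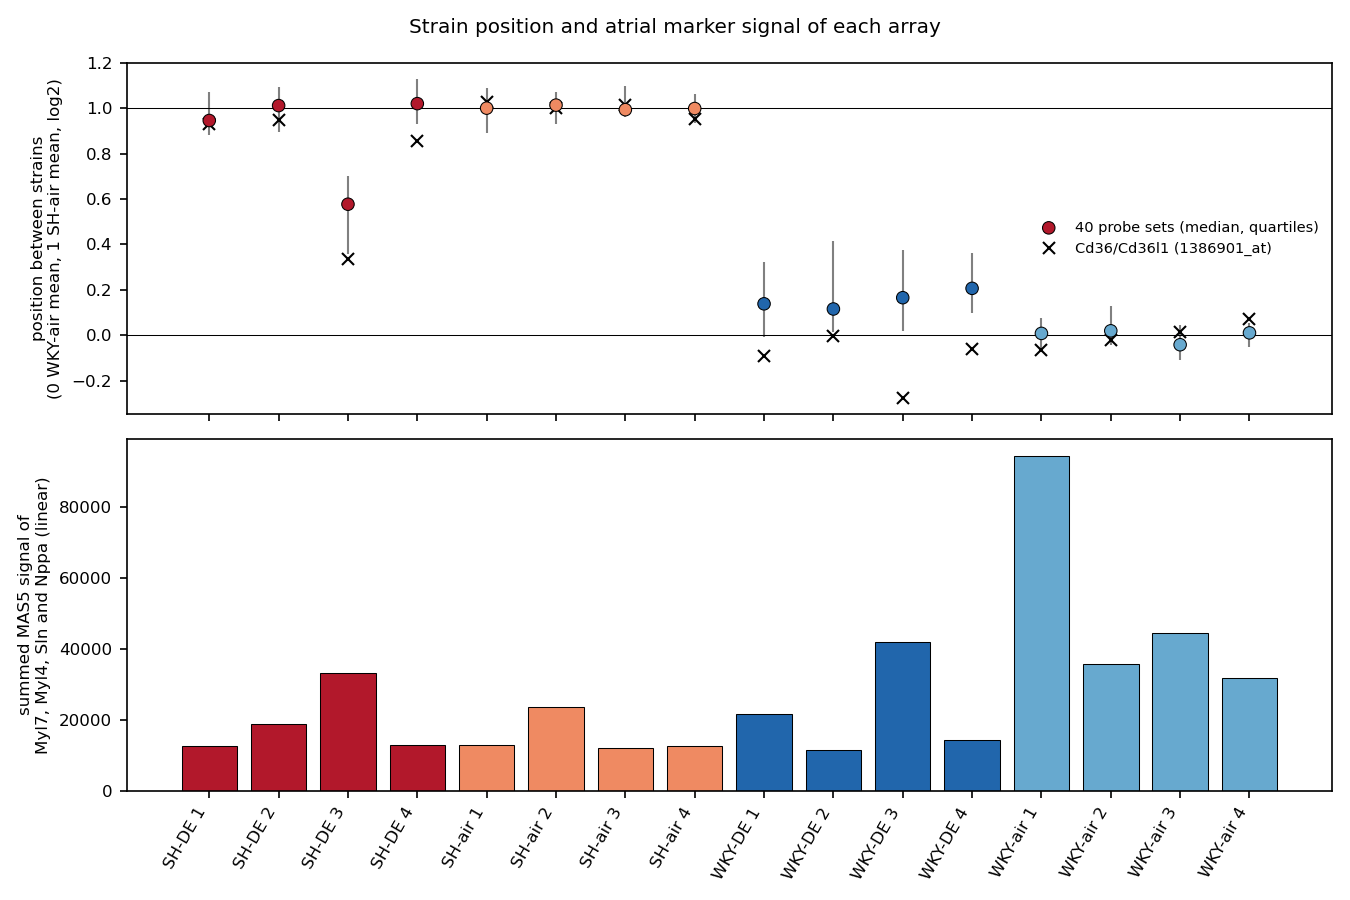
Each of the 16 arrays by group and replicate: above, its position between the strains on the log2 scale (points, median of 40 probe sets of other genes; lines, quartiles; crosses, the probe set shared by Cd36 and Cd36l1), and below, the summed linear signal of 4 atrial genes. SH-DE replicate 3 lies at 0.58 and its cross at 0.33, and the 4 WKY-air bars run from 31842 to 94242, with 2 of the other 12 bars above the lowest of them.

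In hearts of rats that breathed air, the strains differed in 4 of the 8 genes. Cd36, Lsr and G0s2 were lower in SH-air than in WKY-air, and Gpihbp1 was higher. Lpl, Fabp3, Vldlr and Mgll did not pass the test. The 4 calls were 4 of the 13 probe sets (1 higher, 3 lower), beside 3.14% of all 12783 probe sets (1.31% higher, 1.82% lower). Calls were made by limma on log2(signal + 16.2), where the adjusted p had to be under 0.05 and the unadjusted one under 0.01. The median log2 difference over the 8 genes was −0.07, beside 0.02 for all 10411 genes. In a whole ventricle, fewer cells of a type and less RNA per cell cannot be told apart.

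Cd36 encodes the fatty acid translocase. Its own probe set read 2513, 3542, 3465 and 3273 in SH-air hearts, against 7415, 6197, 7888 and 5238 in WKY-air hearts. All 4 SH-air arrays lay below all 4 WKY-air arrays. SH-air averaged 3198 ± 471 and WKY-air 6684 ± 1199 (SD, n = 4 each), a log2 difference of −1.05 (SE 0.21, limma adjusted p = 0.0157). The call was kept in all 16 fits that left out 1 array (adjusted p at most 0.0482).

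The probe set shared by Cd36 and Cd36l1 showed a wider gap. Cd36l1 is the next gene after Cd36 in the RefSeq annotation, and the signal cannot be divided between them. It read 2622, 2729, 2679.8 and 2961 in SH-air hearts, against 14594, 13612, 12849.6 and 11818 in WKY-air hearts. The SH-air arrays were close together and far below the WKY-air arrays. The log2 difference was −2.26 (SE 0.25, limma adjusted p = 0.000189), which is 0.209 of the WKY-air level on the offset scale. Both Cd36 probe sets cite the same Cd36 transcript in the annotation, and both were lower in SH-air, by different amounts.

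Gpihbp1, whose protein brings lipoprotein lipase to the vessel wall, went the other way. It read 1362, 1455, 1475 and 1333 in SH-air hearts, against 421, 556, 231 and 563 in WKY-air hearts. The lowest SH-air array was above the highest WKY-air array. The means were 1406 ± 69.0 in SH-air and 443 ± 156 in WKY-air (SD, n = 4 each), 3.27-fold higher in SH-air on the offset scale (log2 difference 1.71, SE 0.24, limma adjusted p = 0.00118). The enzyme itself was not called. Lpl read 18784, 18708, 21788 and 20239.9 in SH-air hearts and 22837, 18523, 21133 and 18509.9 in WKY-air hearts. These arrays overlapped, with a log2 difference of −0.02 (SE 0.13).

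Gpihbp1 is made by capillary endothelium, so endothelial markers stand beside it. The 12 of 15 endothelial markers that were measured summed to 10129 to 10512 in SH-air and 11038 to 13232 in WKY-air. The sum was lower on every SH-air array, but single markers went both ways. Group medians were higher in SH-air for Kdr (2079, against 1805 in WKY-air), Flt1 (282, 236), Cldn5 (609, 532) and Pecam1 (598, 592). They were lower for Tie1 (613, against 894 in WKY-air), Vwf (626, 1004), Eng (880, 1240), Emcn (1420, 1792), Esam (1469, 1797), Nos3 (262, 374), Egfl7 (940, 1195) and Icam2 (677, 893). None of the 12 was called in either direction, but 6 had an unadjusted limma p under 0.05, beside 17.8% of all probe sets. The median log2 difference of the 12 was −0.36, against 0.02 for all 10411 genes. The part of endothelial RNA in the Gpihbp1 result was not tested.

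Lsr, the lipolysis-stimulated lipoprotein receptor that is best known from liver, was dim throughout. It read 6.23, 18.6, 20.8 and 7.54 in SH-air hearts, against 70.8, 82.0, 75.6 and 92.1 in WKY-air hearts. The groups were far apart, and 2 SH-air arrays but no WKY-air array lay below the offset of 16.2. The log2 difference was −1.74 (SE 0.28, limma adjusted p = 0.00395). Its size rested on the offset, being −2.66 with an offset of 1 and −0.91 with an offset at the 25th percentile of all signals (62.7). No detection call was used, and Lsr fell among the dimmest 40% of probe sets.

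The VLDL receptor gene, Vldlr, had 3 probe sets, and none was called between the strains in air. The dimmest of the 3 averaged 391 ± 43.3 in SH-air and 345 ± 37.4 in WKY-air (SD, n = 4 each), with a log2 difference of 0.17 (SE 0.16). The other 2 Vldlr probe sets differed by 0.06 (SE 0.25) and 0.05 (SE 0.12). Fabp3, the heart-type fatty acid binding protein, read 32838, 31706.5, 32973 and 32999 in SH-air hearts and 44592, 32514, 34605 and 31563 in WKY-air hearts. Apart from WKY-air replicate 1 these arrays lay within a narrow band, and the log2 difference was −0.12 (SE 0.13).

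G0s2, the inhibitor of adipose triglyceride lipase, was lower in SH-air. It read 992, 871, 1067 and 1096 in SH-air hearts, against 2310.0, 1904, 1364 and 1561 in WKY-air hearts. The arrays did not overlap. Its log2 difference was −0.79 (SE 0.19, limma adjusted p = 0.0363), and the call was lost in 9 of the 16 fits that left out 1 array. These were the fits without any 1 of the 4 SH-air arrays, without WKY-air replicate 1, 2 or 4, without SH-DE replicate 1 and without WKY-DE replicate 1, with log2 differences of −0.85 to −0.66 (adjusted p 0.0502 to 0.104). Atrial sums were also lower on every SH-air array (11863 to 23519) than on every WKY-air array (31842 to 94242). Strain and atrial signal cannot be told apart in this comparison, and the part of atrial RNA in the G0s2 result was not tested.

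The monoacylglycerol lipase gene, Mgll, had 4 probe sets. Of its 3 bright probe sets, the one of lowest mean read 778, 982, 951 and 1035 in SH-air hearts and 620.3, 659, 607 and 729 in WKY-air hearts. The arrays did not overlap, but the log2 difference of 0.50 (SE 0.13) had a limma adjusted p of 0.0560 and was not a call. It became one in 5 alternatives, among them the fits without SH-DE replicate 3 (adjusted p = 0.0414) and without SH-air replicate 1 (0.0443). The other 3 Mgll probe sets had log2 differences of 0.03, 0.18 and 0.10, none of them near a call. In all, 5 of the 13 probe sets did not overlap between SH-air and WKY-air, against 11.7% of all probe sets.

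**Figure D2:**
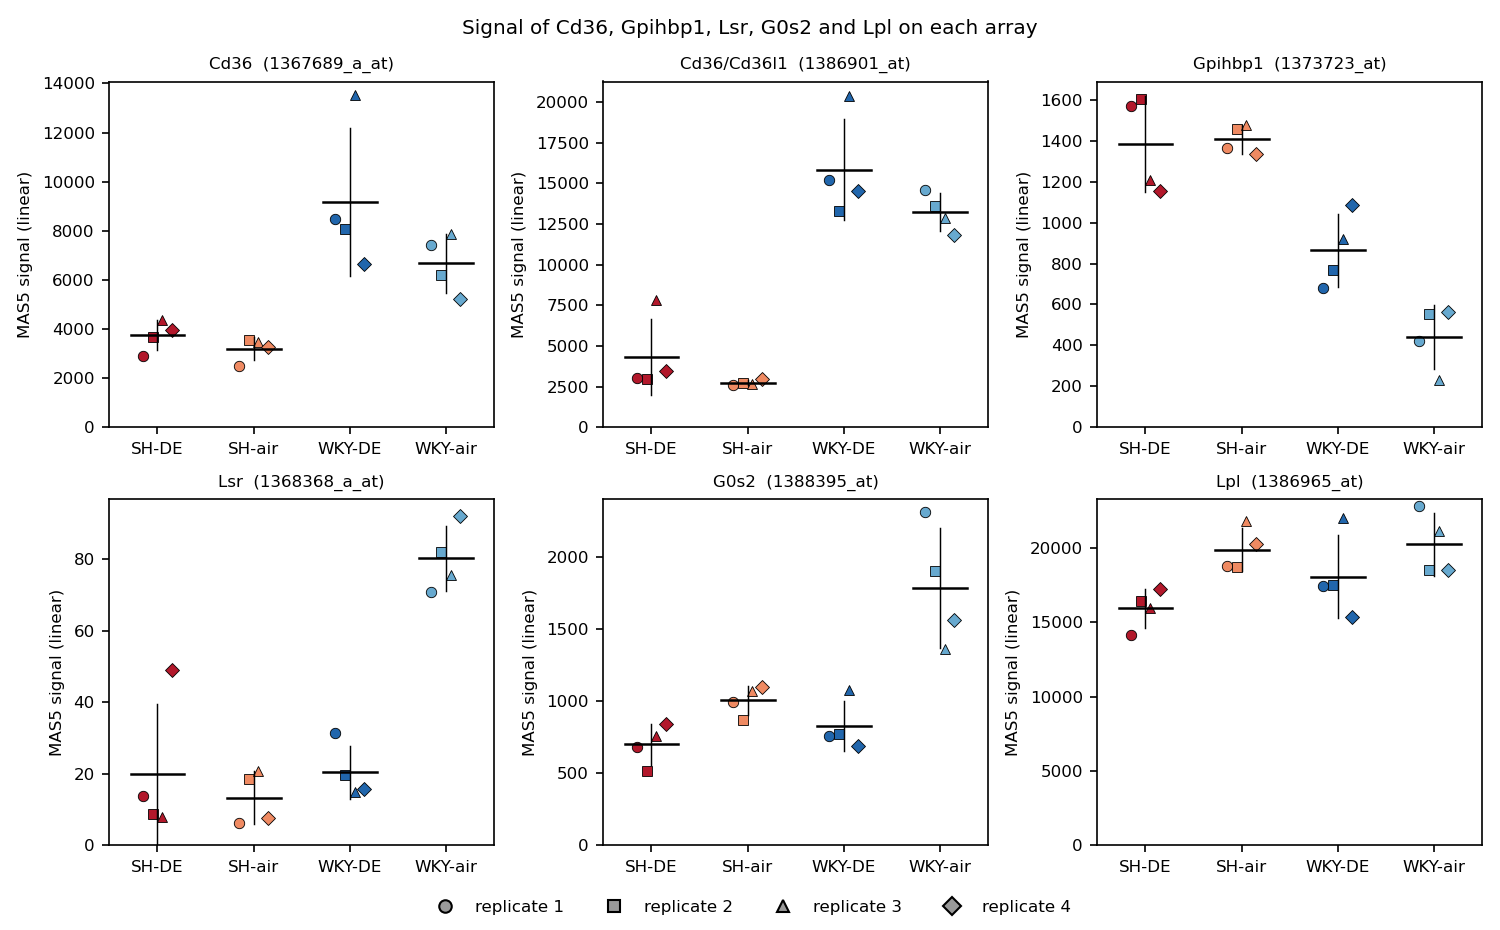
Linear MAS5 signal of 6 probe sets on each array, by group (colours) and replicate (marker shapes), with the mean (horizontal line) and SD (vertical line) of 4 arrays. Cd36 and the shared probe set are lower in both SH groups, Gpihbp1 lies between 1333 and 1475 in SH-air, all above WKY-air, and Lsr and G0s2 are highest in WKY-air.

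Under DE, 3 of the 8 genes changed in WKY hearts. Gpihbp1 rose in WKY-DE, and both Lsr and G0s2 fell, each against WKY-air. Cd36, Lpl, Fabp3, Vldlr and Mgll did not pass the test. The 3 calls were 3 of the 13 probe sets (1 higher, 2 lower), beside 1.87% of all probe sets (1.31% higher, 0.563% lower). The comparison uses the same 4 WKY-air arrays as the strain comparison in air, so the values of those arrays enter both. The median log2 difference over the 8 genes was −0.05, beside 0.08 for all genes.

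Gpihbp1 read 681, 768, 922 and 1085 in WKY-DE hearts, against 231 to 563 in WKY-air hearts. All 4 WKY-DE arrays were above all WKY-air arrays, and all were below the SH-air arrays. The mean was 864 ± 178 in WKY-DE and 443 ± 156 in WKY-air (SD, n = 4 each), 1.99-fold higher on the offset scale (log2 difference 1.00, SE 0.24, limma adjusted p = 0.0469). This call sat at the threshold. It was lost in all 16 fits that left out 1 array, of whichever group, with adjusted p between 0.0506 and 0.109 and log2 differences between 0.72 (without WKY-air replicate 3) and 1.13. Endothelial markers summed to 10574 to 11987 in WKY-DE, against 11038 to 13232 in WKY-air, with none of 12 called. Group medians of Kdr (2095.5, against 1805 in WKY-air), Flt1 (315, 236), Vwf (1053, 1004) and Emcn (1807, 1792) were higher in WKY-DE. They were lower for Pecam1 (460, against 592 in WKY-air), Tie1 (666, 894), Eng (678, 1240), Esam (1307, 1797), Nos3 (264, 374), Cldn5 (452, 532), Egfl7 (1145, 1195) and Icam2 (781, 893). Of the 12 markers, 6 had an unadjusted limma p under 0.05, beside 20.4% of all probe sets. The median log2 difference of the 12 was −0.14, beside 0.08 for all genes.

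Lsr read 31.2, 19.5, 15 and 15.7 in WKY-DE hearts, against 70.8 to 92.1 in WKY-air hearts. The groups did not overlap, and 2 of the WKY-DE arrays were below the offset. Lsr thus differed by −1.41 on the log2 scale (SE 0.28, limma adjusted p = 0.0290). With an offset of 1 it was −1.98 (adjusted p = 0.0621). The call was also lost without WKY-DE replicate 2, 3 or 4 or WKY-air replicate 1, 2 or 4 (log2 difference −1.46 to −1.34, adjusted p 0.0513 to 0.0680).

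G0s2 read 761, 774, 1079 and 689.5 in WKY-DE hearts, against 1364 to 2310.0 in WKY-air hearts. The arrays did not overlap, and the WKY-DE mean of 826 ± 172.9 was 0.470 of the WKY-air level on the offset scale (log2 difference −1.09, SE 0.19, limma adjusted p = 0.0206). The adjusted p passed 0.05 without WKY-DE replicate 2 (log2 difference −1.07, adjusted p = 0.0556) and without WKY-air replicate 1 (−0.96, adjusted p = 0.0507).

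None of the 4 atrial genes was called between WKY-DE and WKY-air, where their median log2 difference was −2.45, beside 0.08 for all genes. All 4 had an unadjusted limma p under 0.05, beside 20.4% of all probe sets. The lowest p was that of Nppa (−0.88, limma adjusted p = 0.189). Myl7 read 404 to 9630 in WKY-DE (9629.52 in replicate 3) and 4415 to 25946 in WKY-air hearts. WKY-DE replicate 3 had the highest Myl7 of its group and the highest G0s2 (1079). Its Lsr (15) lay below the offset, as did that of replicate 4 (15.7), so their order carries no weight. Fibroblast markers were likewise lower, summing to 21275 to 27446 in WKY-DE and 28141 to 36446 in WKY-air, with 1 of 9 called. In SH-air hearts they summed to 18321 to 21798, with 5 of 9 called lower than in WKY-air. The part of atrial and fibroblast RNA in the member results was not tested, and single arrays cannot settle it.

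Cd36 read 8472, 8059, 13527 and 6628 in WKY-DE hearts, against 5238 to 7888 in WKY-air hearts. The groups overlapped, with WKY-DE replicate 3 far above the rest. The log2 difference was 0.42 (SE 0.21, limma adjusted p = 0.278). The shared Cd36 and Cd36l1 probe set gave 0.25 (SE 0.25). Lpl read 17429.8, 17484, 22017 and 15361 in WKY-DE hearts, with a log2 difference of −0.17 (SE 0.13). Fabp3 read 25191, 25909.8, 35234 and 27780.4 in WKY-DE hearts, with a log2 difference of −0.33 (SE 0.13, limma adjusted p = 0.188). That difference changed sign in 1 of 25 alternatives (range −0.43 to 0.002). None of these genes passed the test.

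The dimmest Vldlr probe set came close to a call. It read 569, 563, 464 and 454 in WKY-DE hearts, against 397, 335, 339 and 308 in WKY-air hearts. The groups did not overlap, and the log2 difference was 0.55 (SE 0.16, limma adjusted p = 0.0850). It passed with the dimmest 40% of probe sets left out (adjusted p = 0.0426), with an intensity trend (0.0496) and with array weights (0.0428). The other 2 Vldlr probe sets each differed by 0.12. Of the 13 probe sets, 4 did not overlap between WKY-DE and WKY-air, against 12.7% of all probe sets. The 4 Mgll probe sets ranged from −0.24 to 0.18, and none passed.

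**Figure D3:**
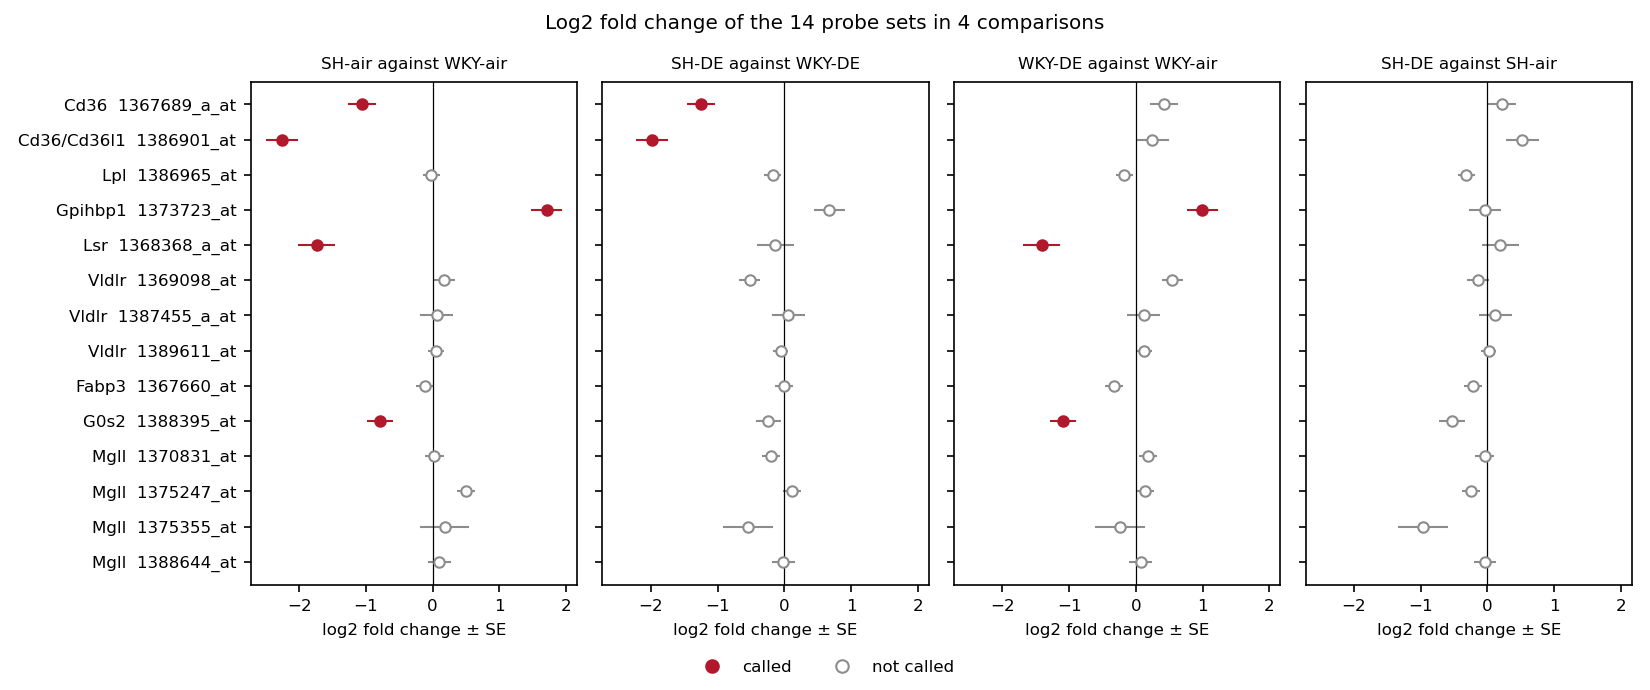
Log2 fold change (point) and its standard error (line) of the 14 probe sets in 4 comparisons, from 1 limma model of all 16 arrays; filled red points passed the test. The Cd36 probe sets passed in both comparisons of SH with WKY, Gpihbp1, Lsr and G0s2 in both comparisons with WKY-air, and none in SH-DE against SH-air.

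In SH rats no member was called between DE and air. None of the 13 probe sets passed in limma, beside 0% of all probe sets, and 3 had an unadjusted p under 0.05, beside 6.23% of all probe sets. Those 3 were Lpl, G0s2 and the dimmest Mgll probe set, all lower in SH-DE. Without SH-DE replicate 3 the number of calls was again 0.

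Lpl read 14134, 16435, 15994 and 17235 in SH-DE hearts, against 18708 to 21788 in SH-air hearts. The arrays did not overlap, with a log2 difference of −0.32 (SE 0.13, limma adjusted p = 0.760). G0s2 read 683, 512, 758 and 843 in SH-DE hearts, against 871 to 1096 in SH-air hearts. These arrays did not overlap either (log2 difference −0.53, SE 0.19, limma adjusted p = 0.740). Fabp3 was the third of the 13 without overlap, at 25501 to 30185 in SH-DE and 31706.5 to 32999 in SH-air hearts (log2 difference −0.21, SE 0.13). The Fabp3 difference changed sign in 1 of 25 alternatives (range −0.24 to 0.01). Across all probe sets 4.17% did not overlap in this comparison, and none of these differences passed after adjustment. The median log2 difference over the 8 genes was −0.04, beside 0.01 for all genes.

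Gpihbp1 read 1569, 1605, 1209.6 and 1152 in SH-DE hearts, on both sides of the SH-air arrays. Its log2 difference was −0.04 (SE 0.24). Lsr read 13.8, 8.66, 7.96 and 48.8 in SH-DE hearts, with 3 of the 4 arrays below the offset and replicate 4 standing apart (log2 difference 0.19, SE 0.28). Cd36 read 2923, 3694, 4374 and 3972 in SH-DE hearts, with a log2 difference of 0.22 (SE 0.21). The shared Cd36 and Cd36l1 probe set read 3055, 2965, 7798 and 3440.5 in SH-DE hearts. Its high array was replicate 3, the one that stood apart on other strain-dependent genes, and without it the SH-DE mean was 3154 ± 253 (SD, n = 3) beside 2748 ± 148 in SH-air (n = 4). This probe set, which is not among the 13, did not overlap either and was higher in SH-DE (log2 difference 0.52, SE 0.25, limma adjusted p = 0.803).

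Between the strains under DE, Cd36 was lower in SH-DE, with the spread estimated from all 16 arrays. Its own probe set was the 1 called of 13, lower in SH-DE, beside 0.704% of all probe sets called (0.422% higher, 0.282% lower). The SH-DE arrays, 2923 to 4374, lay below the WKY-DE arrays, 6628 to 13527. The log2 difference was −1.25 (SE 0.21, limma adjusted p = 0.00878), and −1.33 (adjusted p = 0.00949) without SH-DE replicate 3. The shared Cd36 and Cd36l1 probe set averaged 4315 ± 2332 in SH-DE and 15846 ± 3103 in WKY-DE hearts (SD, n = 4 each), with a log2 difference of −1.98 (limma adjusted p = 0.00124). Without SH-DE replicate 3 this was −2.31 (adjusted p = 8.573e-07). Fitted on SH-DE and WKY-DE alone, both calls were lost at the same log2 differences (limma adjusted p = 0.0887 for Cd36 and 0.0535 for the shared probe set).

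The other strain differences of the air groups were not called under DE. Gpihbp1 was above WKY-DE on every SH-DE array, at 1384 ± 236 in SH-DE and 864 ± 178 in WKY-DE (SD, n = 4 each), but its log2 difference of 0.68 (SE 0.24) had a limma adjusted p of 0.228. Lsr and G0s2 overlapped, with log2 differences of −0.13 (SE 0.28) and −0.24 (SE 0.19). The dimmest Vldlr probe set was lower on every SH-DE array, at 358 ± 82.5 in SH-DE and 513 ± 61.7 in WKY-DE, with a log2 difference of −0.52 (SE 0.16, adjusted p = 0.164). Thus 3 of 13 probe sets did not overlap between SH-DE and WKY-DE, against 8.81% of all. The median log2 difference over the 8 genes was −0.09, beside −0.07 for all genes.

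Whether DE acted differently in the strains was tested by the interaction, the SH difference minus the WKY difference. No member passed (0 of 13, beside 0.00782% of all probe sets called; 3 of 13 had an unadjusted p under 0.05, beside 12.5% of all). For Lsr the interaction was 1.61 (SE 0.39, limma adjusted p = 0.180), for Gpihbp1 −1.03 (SE 0.33, adjusted p = 0.255) and for the dimmest Vldlr probe set −0.69 (SE 0.23, adjusted p = 0.258). The calls of Gpihbp1, Lsr and G0s2 in WKY and their absence in SH rats are therefore not shown to differ.

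Set against WKY-air, SH-DE hearts had higher Gpihbp1 and lower Lsr and G0s2, which made 3 calls of 13 (1 higher, 2 lower) beside 1.91% of all probe sets (1% higher, 0.907% lower). The log2 difference of Gpihbp1 was 1.67 (limma adjusted p = 0.00265), and 1.73 (adjusted p = 0.00278) without SH-DE replicate 3. For Lsr it was −1.54 (adjusted p = 0.0113), and −1.40 (adjusted p = 0.0215) without that array. For G0s2 it was −1.33 (adjusted p = 0.00296), and −1.37 (adjusted p = 0.00334) without it. Cd36 missed the threshold at −0.83 (adjusted p = 0.0607) and passed it without SH-DE replicate 3 (−0.91, adjusted p = 0.0471) and without WKY-DE replicate 3 (−0.83, adjusted p = 0.0289). The shared probe set was called at −1.73 (adjusted p = 0.00265), and at −2.06 (adjusted p = 2.393e-06) without SH-DE replicate 3. This comparison also uses the WKY-air arrays, and 6 of 13 probe sets did not overlap in it, against 10.7% of all. The median log2 difference over the 8 genes was −0.34, beside 0.02 for all genes. The endothelial gene Nos3 was called lower in the same comparison (−0.80, adjusted p = 0.0144, and −0.85, 0.0138 without SH-DE replicate 3), with endothelial sums of 8789 to 11486 in SH-DE.

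Side by side, the order of the 4 group means differed by gene. For Cd36 both WKY groups were above both SH groups, and DE against air was not called in either strain. For Gpihbp1, SH-air (1406) and SH-DE (1384) were highest and overlapped, WKY-DE (864) lay between, and WKY-air (443) was lowest. For Lsr, WKY-air (80.1) was highest, and SH-DE (19.8), SH-air (13.3) and WKY-DE (20.4) overlapped one another at or near the offset. For G0s2, WKY-air (1785) was highest, SH-air (1007) and WKY-DE (826) overlapped, and SH-DE (699) overlapped WKY-DE but not SH-air.

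The wider pathway was followed in 6 lists. Around lipoprotein lipase (its assembly factors, cofactors, inhibitors and relatives), 11 of 15 genes were measured and none was called in any comparison. In SH-air against WKY-air the gene of lowest p was the surface proteoglycan Sdc4, at 608 ± 101 in SH-air, against 925 ± 94.4 in WKY-air hearts (log2 difference −0.60, limma adjusted p = 0.0581). In WKY-DE against WKY-air it was Lmf1, a factor needed to fold the lipase, at 139 ± 19.3 in WKY-DE and 229.9 ± 15.1 in WKY-air (−0.67, adjusted p = 0.105). Angptl4, a secreted inhibitor of the lipase, had the lowest p in SH-DE against WKY-DE (log2 difference 1.25, adjusted p = 0.101).

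Among other lipoprotein receptors and their partners, 10 of 14 were measured, and apolipoprotein E, the ligand that many of these receptors bind, was the 1 called. Apoe averaged 1224 ± 161 in SH-DE, 1212 ± 166 in SH-air, 1222 ± 285 in WKY-DE and 2539.8 ± 700.4 in WKY-air (SD, n = 4 each). Its mean was highest in WKY-air, and the other 3 means lay between 1212 and 1224. The log2 difference was −1.03 in SH-air against WKY-air (SE 0.21, limma adjusted p = 0.0156; at most 0.0473 without any 1 array). In WKY-DE against WKY-air it was −1.04 (SE 0.21, limma adjusted p = 0.0296), and 12 of the 16 fits without 1 array kept the call (adjusted p 0.0263 to 0.0663). The list medians were −0.22 in SH-air against WKY-air and 0.22 in WKY-DE against WKY-air, beside 0.02 and 0.08 for all genes.

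Of fatty acid uptake, binding and activation, 19 of 20 genes were measured. None was called between the strains in air, where the list median was −0.03, and the lowest p belonged to the fatty acid binding protein Fabp5 (−0.57, limma adjusted p = 0.0879). Slc27a2, a very long-chain acyl-CoA synthetase known mainly from liver and kidney, was higher in WKY-DE at 243 ± 58.0, against 106 ± 45.1 in WKY-air (log2 difference 1.14, adjusted p = 0.0406). That call was kept in 5 of the 16 fits without 1 array (adjusted p 0.0343 to 0.1003). In SH-DE against WKY-air, 2 list genes were called and are named after their values were seen. Apoe was lower in SH-DE (−1.01, limma adjusted p = 0.0221, and −1.09, 0.0207 without SH-DE replicate 3, kept in 11 of 16 fits without 1 array). Fabp4, the binding protein of adipocytes and capillary endothelium, was higher in SH-DE at 5922 ± 332, against 4114 ± 389 in WKY-air (0.53, adjusted p = 0.0464, kept in 2 of those 16 fits). Without SH-DE replicate 3 the Fabp4 call was lost (0.52, limma adjusted p = 0.0584).

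Genes of the lipid droplet, of triglyceride synthesis and of lipolysis gave 4 list calls between the strains in air, out of 18 measured of 24 (3 higher and 1 lower in SH-air). Pnpla2, the adipose triglyceride lipase that G0s2 inhibits, averaged 2605 ± 194 in SH-air and 1820.5 ± 64.0 in WKY-air (SD, n = 4 each; log2 difference 0.51, limma adjusted p = 0.0300). The droplet coat gene Plin4 averaged 3153 ± 241 in SH-air, against 2296 ± 219.7 in WKY-air (log2 difference 0.46, adjusted p = 0.0315). The phosphatidate phosphatase gene Lpin3 averaged 253 ± 61.2 in SH-air and 125 ± 53.5 in WKY-air (0.98, adjusted p = 0.0439). Cidea, whose protein enlarges lipid droplets, was lower at 2865 ± 401 in SH-air, against 4765 ± 592 in WKY-air (−0.73, adjusted p = 0.0270).

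Between the strains in air, G0s2 was thus lower in SH-air and its target Pnpla2 higher. Fits without 1 array kept the call of Pnpla2 in 9 of 16 (adjusted p up to 0.0862), of Plin4 and Cidea in 10 each (up to 0.0865 and 0.0803) and of Lpin3 in 5 (up to 0.121). The list median was 0.36 in SH-air against WKY-air, beside 0.02 for all genes, and 0.00 in WKY-DE against WKY-air, beside 0.08. In WKY-DE against WKY-air none of the 18 was called, and the lowest p was that of hormone-sensitive lipase, Lipe, at 243 ± 31.3 in WKY-DE and 379 ± 57.0 in WKY-air (−0.60, limma adjusted p = 0.115).

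Of the nuclear receptors and coactivators that govern lipid genes, 13 of 14 were measured and none was called. The coactivator Ppargc1a averaged 297 ± 57.8 in SH-air, against 191 ± 75.6 in WKY-air hearts (log2 difference 0.64, limma adjusted p = 0.237). The liver X receptor Nr1h2 averaged 466 ± 43.8 in WKY-DE and 636 ± 86.3 in WKY-air (−0.43, adjusted p = 0.0958). Of 11 measured targets of PPAR receptors outside the other lists, 1 was called: Ehhadh, a peroxisomal enzyme of fatty acid oxidation, at 228 ± 31.9 in SH-air and 127 ± 26.8 in WKY-air (0.79, adjusted p = 0.0168, kept in 14 of 16 fits without 1 array and at most 0.0539). None of these 6 lists held a call in SH-DE against SH-air, in SH-DE against WKY-DE or in the interaction.

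**Figure D4:**
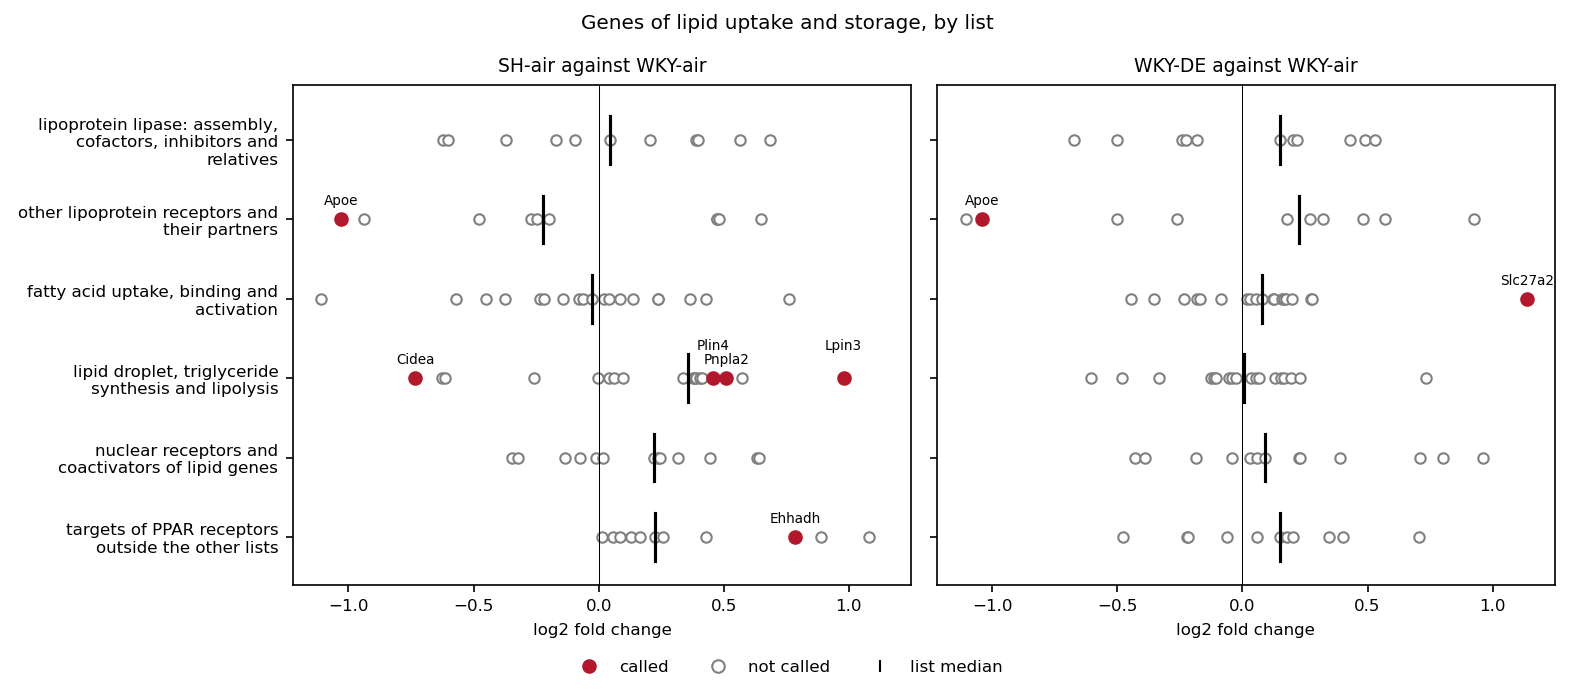
Log2 fold change of every measured gene of 6 lists (circles; filled red, called and named) with the list median (black bar), in SH-air against WKY-air and WKY-DE against WKY-air, which share the WKY-air arrays. Apoe is the 1 gene called in both panels, and the lipid droplet list has its median at 0.36 on the left and 0.00 on the right.

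Adipocytes and macrophages express Cd36, Lpl and several of the other genes, so their markers stand beside these results. Of 9 adipocyte markers 6 were measured, with sums of 6244 to 7049 in SH-DE, 5487 to 6497 in SH-air, 4767 to 6543 in WKY-DE and 4672 to 5328 in WKY-air hearts. Fabp4 made up most of each sum, with a median of 5352 in SH-air and 4065 in WKY-air. Without it the sums were 520.2 to 672 in SH-DE, 615 to 892 in SH-air, 532 to 603 in WKY-DE and 785 to 979 in WKY-air. These overlapped between SH-air and WKY-air, while all SH-DE and WKY-DE sums lay below all WKY-air sums. The median log2 difference of the 6 markers between SH-air and WKY-air was −0.01, beside 0.02 for all genes. Scd, a fatty acid desaturase, was called lower against WKY-air in SH-air (−1.70, limma adjusted p = 0.0142) and in SH-DE (−1.52, adjusted p = 0.0324, and −1.59, 0.0358 without SH-DE replicate 3). Scd was dim, below the offset on 3 SH-air arrays (range 8.92 to 71.2) and on 1 SH-DE array. Lep, which only adipocytes make in quantity, lay below the offset on 3 SH-DE, 2 SH-air, 3 WKY-DE and 3 WKY-air arrays. Of 8 macrophage markers 6 were measured, with sums of 3624 to 4187 in SH-DE, 3158 to 4305 in SH-air, 2928 to 3585 in WKY-DE and 3667 to 3960 in WKY-air, and none was called in any comparison. The part of these cells in the member results was not tested.

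Within the groups, some members rose and fell together from heart to heart. After subtraction of the group means over the 16 arrays, the gene most like Cd36 among 8541 was Lpl (r = 0.86), followed by Ndufb5 (0.85) and Adss2 (0.85). For Lpl the nearest were Ndufb5 (r = 0.90), the acyl-CoA synthetase Acsl1 (0.90) and Yes1 (0.89). The arrays share scaling and tissue make-up, and r is given as a description. Without WKY-DE replicate 3 the r of Cd36 with Lpl was 0.75, and without the 2 arrays farthest in Cd36 (WKY-DE replicates 3 and 4) it was 0.72. Gpihbp1 had an r of −0.35 with the lipase it carries and −0.41 with Cd36, and without WKY-DE replicate 3 these were −0.55 and −0.66. The genes nearest to Gpihbp1 were Ppan (0.94), Mylip (0.86) and Zfp707 (0.84), and those nearest to the dim Lsr were Dnaja1 (0.90), Lancl2 (0.81) and Fahd1 (0.79). Over the 16 arrays with group differences left in, the nearest were Apol3l1 (0.92) for Cd36, Ifit1 (0.94) for Gpihbp1, Prr13 (0.86) for Lsr and Ldhb (0.81) for Lpl. These values include the differences between groups.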

How the data were processed

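RNA from the left ventricles of 16 rats, 4 per group, was measured on Affymetrix rat expression arrays. The authors deposited MAS5 signal intensity values on a linear scale, scaled to a common trimmed mean (500.2 on each array), whereas the published lists used another normalization, so values here can differ from those. Of 15923 probe sets, 57 controls were left out and 15866 were tested. The platform annotation ties 12783 to 1 gene, 312 to several and 2771 to none, and 12748 symbols were matched to RefSeq by Entrez ID. Array medians averaged 190 in SH-DE, 189 in SH-air, 211 in WKY-DE and 188 in WKY-air. In WKY-DE against WKY-air the median log2 difference over the 12783 probe sets was 0.08, and −0.0005 with quantile normalization.

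log2(signal + 16.2), the offset being the 10th percentile, was fitted with limma 3.58.1 in R 4.3.3 as 4 group means without a replicate block, with Benjamini-Hochberg adjustment over all 15866 probe sets. Calls needed an adjusted p under 0.05 and p under 0.01, following the thresholds as the published Results and Discussion word them. The published Methods can also be read as an adjusted p under 0.01, which is the stricter threshold among the alternatives below. The pipeline was tested on simulated data. Members and lists were chosen with earlier results of these data known. Named genes are all member probe sets and, per list and comparison, at most 4 called genes of lowest p, or the 1 of lowest p, by the brightest probe set. Alternatives were a stricter threshold, offsets of 1 and 62.7, quantile normalization, leaving out the dimmest 40%, an intensity trend, array weights, the compared groups alone, a replicate block and leaving out each array.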

Additional observations from a re-analysis of the deposited data

Results flagged for a closer look

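A single array stood far from the other 3 of its group in 3 of 56 member probe set groups, by Dixon's 95% limit on the gap as a share of the group's range. Chance gives about 1 such case in 20 groups. The probe set shared by Cd36 and Cd36l1 had a signal of 7798.47 in SH-DE replicate 3 (gap 0.902 of the range), against 2965 to 3440.5 on the other SH-DE arrays. Lsr had 48.8395 in SH-DE replicate 4 (0.858), against 7.96 to 13.8 on the others. Fabp3 had 31706.5 in SH-air replicate 2 (0.875), the lowest of a narrow group whose others were 32838 to 32999.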

How the results depend on the processing

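Of the member results, 17 were called in some setting, and none of them changed direction in any of 25 alternatives, while 32 of 67 never called changed sign somewhere. The number of member probe sets called in SH-air against WKY-air was 4, fell to 2 at an adjusted p under 0.01 and was 3 to 5 without 1 array. In WKY-DE against WKY-air it was 3, then 0 at an adjusted p under 0.01, 1 with an offset of 1, 1 with the compared groups alone, 1 with a replicate block, and 0 to 2 without 1 array (0 without WKY-DE replicate 2 or WKY-air replicate 1, 1 without WKY-DE replicate 3 or 4 or WKY-air replicate 2 or 4). With the compared groups alone it was 0 in place of 1 in SH-DE against WKY-DE and 1 in place of 3 in SH-DE against WKY-air (3 to 4 without 1 array). SH-DE against SH-air and the interaction gave 0 in every setting run. The cause of these changes was not tested, beyond the fewer arrays or stricter limit of the settings themselves. In SH-air against WKY-air, Gpihbp1 and the shared Cd36 probe set kept their calls in 25 of 25 alternatives, Lsr in 24 of 24 and Cd36 in 24 of 25. Replicate numbers did not pair the arrays: deviations of same-numbered arrays correlated at -0.10 to 0.05 over 24 pairs, with none over 0.1 and the own number best in 3. The replicate block took the call from G0s2 in SH-air against WKY-air (adjusted p = 0.0706) and from Gpihbp1 (0.0726) and Lsr (0.0562) in WKY-DE against WKY-air, by limma. The block also took the SH-air against WKY-air calls of Cidea (0.0609), Pnpla2 (0.0607), Plin4 (0.0764), Lpin3 (0.0720) and the atrial Sln (0.0540), the WKY-DE calls of Apoe (0.0508) and Slc27a2 (0.0720), and the SH-DE calls of Fabp4 (0.103), Myl3 (0.0819) and Scd (0.0579) against WKY-air. A log2 difference between groups of 4 had a median standard error of 0.21, and dim probe sets (Lsr, the dimmest Mgll) lie near the offset.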
